A study of Mus musculus with 6 samples.

Results

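The 5 genes described here, Prss50, Chchd10, Egfl7, Cited4 and Macrod1, are less familiar genes that were picked because their transcripts were higher in CD44+CD51- than in CD51+ cells of mouse bone marrow. They are 5 of the 25938 gene symbols in the deposited table, whose unit, RPKM, scales a gene's reads by transcript length and by the size of the library. Each symbol occurred once. The genes were chosen by their RPKM in the same 6 libraries that are given below, so their difference between the groups is a description and carries no test.

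The study sorted cells that the labels call TNCs, a term they do not spell out, from enzymatically digested marrow of C57BL/6 mice. Bulk RNA was sequenced in 6 libraries, 3 from the CD44+CD51- gate and 3 from the CD51+ gate, numbered 1 to 3 in each group, and no age, sex, treatment or genotype beyond the strain is stated for either. Itgav encodes CD51, the alpha V integrin chain, and CD44 binds hyaluronan. Nothing in the labels says that the numbered libraries came from separate animals, so the spread between them may be technical.

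Chchd10 and Macrod1 encode proteins found in mitochondria. CHCHD10 is a small protein with paired cysteines that sits between the mitochondrial membranes, and mutations in the human gene are known from motor neuron and muscle disease. MACROD1 removes single ADP-ribose groups from proteins. Egfl7 encodes a secreted protein with EGF-like repeats that is best known from endothelial cells, and an intron of the gene carries the microRNA miR-126. CITED4 binds the coactivators CBP and p300 through its acidic tail and competes there with HIF-1 alpha, a transcription factor regulated by oxygen. PRSS50 is a trypsin-like protease relative described mainly from testis.

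The promoters of the 5 genes are shown because the genes were high in the same libraries, so that a reader can compare what lies at their starts. RefSeq (build GRCm38.p6) lists 9 start sites for them, 3 for Egfl7, 2 each for Prss50 and Macrod1 and 1 each for Chchd10 and Cited4. Each sequence holds 250 bases before and 50 after a start, written 5′ to 3′ on the gene's strand. Prss50 and Macrod1 have close starts, of which the first is shown, and for Egfl7 the second of its starts is shown. Capitals mark matches, on either strand, to AGATAA and TGATAA (read by GATA factors), CACCC (read by KLF factors), CANNTG (the E-box), GGGCGG (the GC box), CCAAT (read by NF-Y), the TATA box TATAAA and the POU factor octamer ATTTGCAT.
Prss50, chr9:110857714-110858013, plus strand: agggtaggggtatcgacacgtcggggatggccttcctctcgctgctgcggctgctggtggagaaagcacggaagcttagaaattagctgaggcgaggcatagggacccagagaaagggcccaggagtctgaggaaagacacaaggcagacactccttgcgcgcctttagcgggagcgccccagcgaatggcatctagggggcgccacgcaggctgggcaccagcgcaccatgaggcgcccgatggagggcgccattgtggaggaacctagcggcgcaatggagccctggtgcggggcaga
Chchd10, chr10:75932880-75933179, plus strand: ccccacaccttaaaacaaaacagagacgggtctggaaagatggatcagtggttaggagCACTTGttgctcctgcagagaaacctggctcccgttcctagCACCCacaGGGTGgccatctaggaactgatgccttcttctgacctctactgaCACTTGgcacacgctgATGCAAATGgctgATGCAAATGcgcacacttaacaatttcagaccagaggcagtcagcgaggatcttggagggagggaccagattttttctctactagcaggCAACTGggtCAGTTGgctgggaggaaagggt
Egfl7, chr2:26583615-26583914, plus strand: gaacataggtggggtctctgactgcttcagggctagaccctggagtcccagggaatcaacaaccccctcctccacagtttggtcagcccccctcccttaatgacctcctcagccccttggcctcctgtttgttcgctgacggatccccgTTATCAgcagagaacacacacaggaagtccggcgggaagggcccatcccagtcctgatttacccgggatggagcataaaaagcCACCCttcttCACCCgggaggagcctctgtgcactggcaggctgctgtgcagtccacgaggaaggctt
Cited4, chr4:120666313-120666612, plus strand: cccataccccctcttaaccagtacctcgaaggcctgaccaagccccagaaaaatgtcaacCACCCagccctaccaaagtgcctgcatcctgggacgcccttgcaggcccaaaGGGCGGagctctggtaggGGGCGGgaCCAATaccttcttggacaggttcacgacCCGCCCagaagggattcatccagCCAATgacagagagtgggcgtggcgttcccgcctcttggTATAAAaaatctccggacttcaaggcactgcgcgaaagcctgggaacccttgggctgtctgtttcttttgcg
Macrod1, chr19:7056518-7056817, plus strand: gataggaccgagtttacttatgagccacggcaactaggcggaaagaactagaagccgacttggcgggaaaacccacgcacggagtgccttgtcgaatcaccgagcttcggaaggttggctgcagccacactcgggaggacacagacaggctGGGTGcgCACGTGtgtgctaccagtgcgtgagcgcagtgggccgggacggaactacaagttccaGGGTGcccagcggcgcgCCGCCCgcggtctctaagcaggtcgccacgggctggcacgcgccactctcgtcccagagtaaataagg

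No motif was shared by all 5 genes. AGATAA, present in 11.2% of the 32851 promoters listed, matched none of the 9 member promoters. TGATAA, present in 9.05%, matched the second Egfl7 promoter, 101 bases before its start, and no other. CACCC, present in 57.5%, matched in Chchd10, Cited4, Macrod1 and the second Egfl7 promoter but not in Prss50. The Prss50 promoter held none of the capitalised motifs and 1 match each to the ETS-like CGGAAG (16.9% of promoters) and to GATA alone (57.9%).

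The Chchd10 promoter held 2 octamers, 83 and 70 bases before the start, where 1.74% of promoters hold at least 1. It also held 6 matches to CANNTG, present in 72.3% of promoters, and 2 of these overlap the octamers. Cited4 held a TATAAA match 22 bases before its start (13.6% of promoters), 2 CCAAT matches (37.4%) and 3 GGGCGG matches (35.7%). Macrod1 held CACGTG (7.15%), which is also a CANNTG match. The third Egfl7 promoter held 4 GGGCGG matches, of which the last 3 overlap by a base, and the first a CAGCTG (16.3%). TGACGTCA (1.79%) and ATTGCATC (0.496%) matched none. A match is a run of letters and does not show that a factor binds, and the files do not say which start was used. The GC content of the 9 promoters ran from 52.0 to 67.3%, against a median of 52.7% for all promoters.

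Chchd10 (ENSMUSG00000049422.7, chromosome 10, 75933130 to 75937747, plus strand, GRCm38) had the highest level of the 5 genes in both groups. Its level was 241, 315 and 248 RPKM in CD44+CD51- libraries 1, 2 and 3, and 66.6, 73.7 and 93.2 RPKM in CD51+ libraries 1, 2 and 3. The lowest CD44+CD51- value was 2.59 times the highest CD51+ value. The mean was 268 ± 40.7 RPKM in CD44+CD51- cells and 77.8 ± 13.7 RPKM in CD51+ cells (SD, n = 3 each), a difference of 1.78 on the log2(RPKM + 1) scale. In CD44+CD51- cells 97.6% of the 11741 genes that passed the filter on low values, an RPKM of at least 1 in at least 3 libraries, had a lower mean. In CD51+ cells 91.2% did.

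Prss50 (ENSMUSG00000048752.7, chromosome 9, 110857967 to 110864629, plus strand) was at 246, 162 and 144 RPKM in the CD44+CD51- libraries and at 52.8, 50.5 and 43.9 RPKM in the CD51+ libraries. CD44+CD51- library 1 stood highest, and the groups were apart by 2.74 times between their nearest values. The means were 184 ± 54.1 and 49.1 ± 4.59 RPKM in CD44+CD51- and CD51+ cells, a difference of 1.85 on the log2(RPKM + 1) scale. Among the 11741 genes it ranked at 11 by this difference, with Chchd10 at 16 and Egfl7 at 17.

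Cited4 (ENSMUSG00000070803.6, chromosome 4, 120666572 to 120667820, plus strand) was at 162, 103 and 99.1 RPKM in the CD44+CD51- libraries and at 51.0, 40.7 and 49.0 RPKM in the CD51+ libraries. Library 1 was again the highest of its group, and the nearest values of the groups were 1.94 times apart. The means were 121 ± 35.3 RPKM in CD44+CD51- cells and 46.9 ± 5.42 RPKM in CD51+ cells, a difference of 1.32 on the log2(RPKM + 1) scale, the smallest of the 5 and 199th of all genes tested.

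Macrod1 (ENSMUSG00000036278.7, chromosome 19, 7056810 to 7198057, plus strand) was at 79.7, 57.8 and 57.4 RPKM in the CD44+CD51- libraries and at 20.7, 24.6 and 25.9 RPKM in the CD51+ libraries. Its groups were 2.22 times apart at their nearest values. The means were 64.9 ± 12.7 RPKM in CD44+CD51- cells and 23.7 ± 2.68 RPKM in CD51+ cells, a difference of 1.40 on the log2(RPKM + 1) scale and rank 127.

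Egfl7 (ENSMUSG00000026921.18, chromosome 2, 26580014 to 26593120, plus strand) was the lowest and most uneven of the 5. It was at 56.1, 18.7 and 17.9 RPKM in the CD44+CD51- libraries and at 11.3, 5.44 and 5.81 RPKM in the CD51+ libraries. In both groups library 1 stood apart, so that the highest value was 3.13 times the lowest among CD44+CD51- libraries and 2.07 times among CD51+ libraries, where the other 4 genes stayed within 1.70 and 1.40 times. The nearest values of the groups were 1.59 times apart. The means were 30.9 ± 21.9 RPKM in CD44+CD51- cells and 7.50 ± 3.26 RPKM in CD51+ cells, a difference of 1.77 on the log2(RPKM + 1) scale. Without CD44+CD51- library 1 that difference was 1.25.

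For each of the 5 genes all CD44+CD51- values lay above all CD51+ values, the direction for which they were chosen. Over all genes tested, every CD44+CD51- value lay above every CD51+ value in 37.5% and below every one in 26.1%, and limma called 29.7% of the 11741 genes higher, 24.1% lower and so 53.7% in either direction in CD44+CD51- cells at an adjusted p of 0.05. That is 3484 higher and 2825 lower, so that 55.2% of the calls were higher; after quantile normalization 65.4% were, with 4567 higher and 2419 lower, and after median centring 44.4%, with 2564 higher and 3214 lower. These scalings moved the median difference of all genes by 0.13 and -0.17, and the differences of the 5 genes stayed between 1.14 and 1.89 under all settings that kept every library. These are bulk libraries, so fewer cells of a type and less RNA per cell cannot be told apart.

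**Figure D1:**
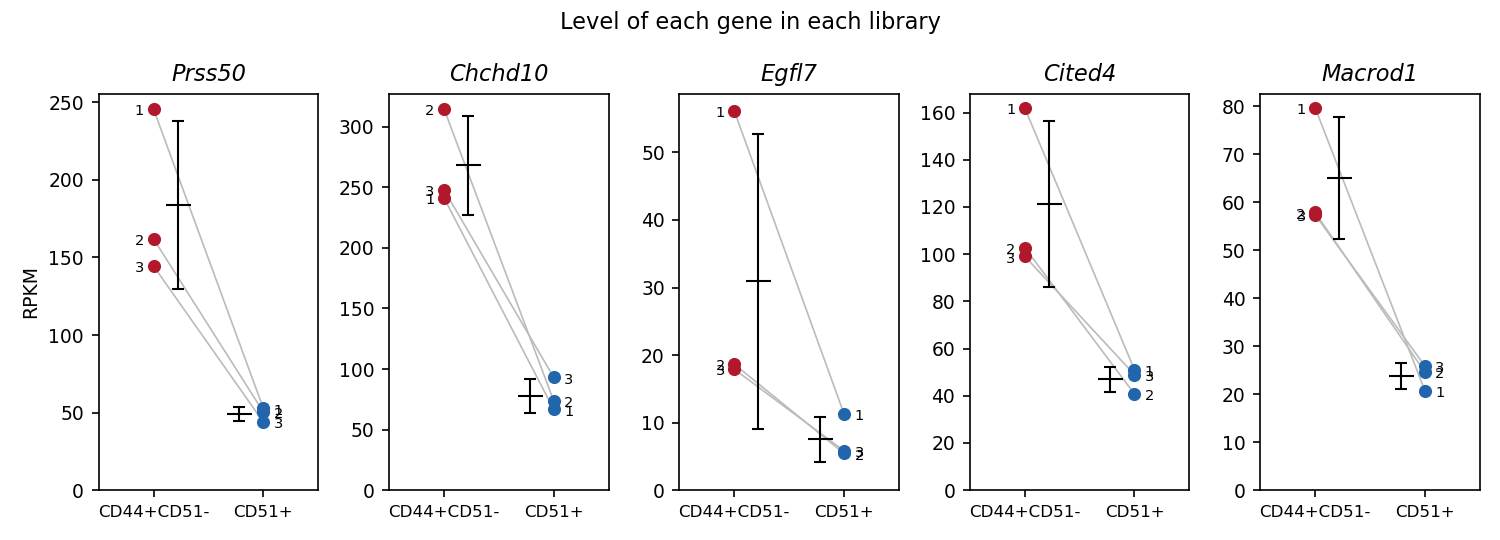
RPKM of each gene in each library, CD44+CD51- at the left and CD51+ at the right of each panel. Numbers are library numbers, grey lines join equal numbers, and black bars give mean ± SD (n = 3); the vertical axis starts at 0 and differs between panels. All CD44+CD51- points lie above all CD51+ points, and library 1 of both groups stands high for Egfl7.

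**Figure D2:**
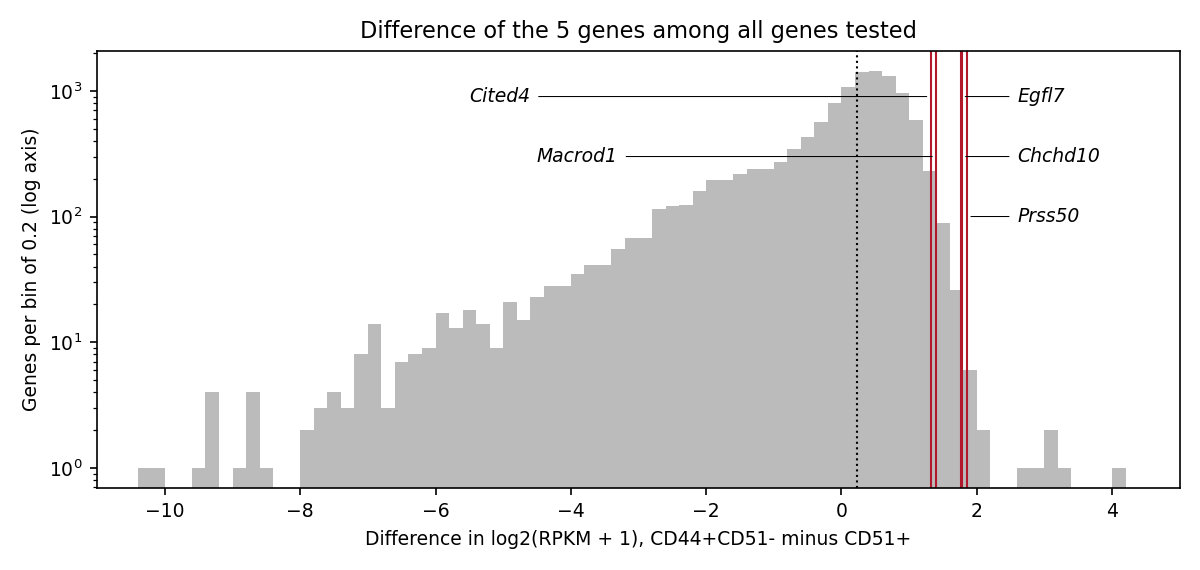
Number of genes (log axis) by difference in log2(RPKM + 1), CD44+CD51- minus CD51+, for the 11741 genes tested. Red lines mark the 5 genes, between 1.32 and 1.85, and the dotted line the median of all genes, 0.23. The differences reach further to the left, where genes are higher in CD51+ cells, than to the right.

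In CD44+CD51- cells the order of levels per length was Chchd10, Prss50, Cited4, Macrod1 and Egfl7. Chchd10 and Prss50 overlapped in their 3 values, as did Prss50 and Cited4, while Cited4 lay above Macrod1 and Macrod1 above Egfl7 in all libraries. The order was the same in CD51+ cells. There Prss50 and Cited4 overlapped, and the other neighbours did not.

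Equal library numbers tended to deviate together over all genes, most clearly number 1, so the ratio was also taken within numbers. Numbers 2 and 3 are not clearly paired. For libraries 1, 2 and 3 the CD44+CD51- level was 4.66, 3.21 and 3.29 times the CD51+ level for Prss50. It was 3.62, 4.27 and 2.66 times for Chchd10, and 4.98, 3.43 and 3.08 times for Egfl7. For Cited4 it was 3.18, 2.52 and 2.02 times and for Macrod1 3.84, 2.35 and 2.22 times. All of these ratios were thus above 2, and library pair 1 gave the highest for every gene but Chchd10, where pair 2 did. The ratio in Egfl7, although its levels were the most uneven, varied no more between pairs than that of Macrod1.

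Departures from the group mean showed which libraries the genes shared. On the log2(RPKM + 1) scale CD44+CD51- library 1 was 0.45 above its group mean for Prss50, 1.04 for Egfl7, 0.45 for Cited4 and 0.31 for Macrod1. Chchd10 was 0.14 below in that library and 0.24 above in CD44+CD51- library 2. The median of all genes tested departed by -0.03 and 0.06 in these 2 libraries. Among CD51+ libraries, library 1 was 0.59 above for Egfl7 and 0.21 below for Chchd10.

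The reads behind these values were estimated from how RPKM steps from read to read in weakly read genes, since the files give no counts. They ran from 4052 to 7279 for Prss50, 7525 to 12696 for Chchd10, 1235 to 4091 for Egfl7, 2385 to 4119 for Cited4 and 1357 to 1991 for Macrod1 in CD44+CD51- libraries. In CD51+ libraries they ran from 935 to 2378 for Prss50, 1277 to 3754 for Chchd10, 491 to 630 for Egfl7, 775 to 1647 for Cited4 and 310 to 977 for Macrod1. The counting error was at most 5.7% of a value, for Macrod1 in CD51+ library 1, so the spread between libraries is larger than counting gives. This covers counting error only.

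Of the sorting genes, Itgav was at 0.677 ± 0.244 RPKM in CD44+CD51- cells and 7.01 ± 2.43 RPKM in CD51+ cells, and Cd44 at 34.8 ± 2.57 and 31.5 ± 2.98 RPKM in CD44+CD51- and CD51+ cells. Ptprc, which encodes the blood cell antigen CD45, was at 3.25 ± 1.28 RPKM in CD44+CD51- cells and 6.87 ± 0.643 RPKM in CD51+ cells. The estimated library size behind the RPKM ran from 19266048 to 25601331 reads in CD44+CD51- libraries and from 12172683 to 32355835 reads in CD51+ libraries. Over all genes tested 24.1% were called lower in CD44+CD51- cells. All 20 stromal genes examined were lower there, such as the leptin receptor gene Lepr (log2 difference -7.03), and so were all 20 myeloid genes. Their summed levels were 32.2 to 189 RPKM in CD44+CD51- and 38733 to 50866 RPKM in CD51+ libraries for the stromal list, and 6487 to 30554 RPKM in CD44+CD51- and 90158 to 95216 RPKM in CD51+ libraries for the myeloid list. For 8 of the stromal genes, Lepr among them, no CD44+CD51- library reached an RPKM of 1, so their direction was fixed by the filter. Without any 1 CD51+ library 12 of the stromal genes passed the filter and all 12 were lower. The part of this make-up in the levels of the 5 genes was not tested.

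Annotated genes overlap 3 of the 5, and the library kit as usually used does not keep strand, so their reads could not be told apart there. Mmp11, a matrix protease gene on the other strand, overlaps Chchd10 over 3367 bases of GRCm38. Mmp11 was at 1.03, 2.17 and 1.15 RPKM in CD44+CD51- libraries and 15.1, 9.94 and 6.38 RPKM in CD51+ libraries, opposite in direction to Chchd10. Gm867 overlaps the other end of Chchd10 by 25 bases and averaged 0.808 ± 0.656 RPKM in CD44+CD51- cells and 1.17 ± 0.220 RPKM in CD51+ cells. Gm20532 overlaps Egfl7 over 6482 bases on the same strand. No RPKM is listed under its symbol, so its reads could not be told apart from those of Egfl7. Agpat2, a lipid synthesis gene, overlaps the end of Egfl7 by 64 bases on the other strand. It was at 45.6, 30.2 and 13.4 RPKM in CD44+CD51- libraries and at 182, 48.0 and 52.5 RPKM in CD51+ libraries, with library 1 highest in both groups as for Egfl7. Flrt1 lies within Macrod1 on the other strand and was listed at 0 in every CD44+CD51- library and at no more than 0.0281 RPKM in a CD51+ library. The Prss50 neighbour Tmie, which does not overlap it, was at no more than 1.93 RPKM. Otub1, which adjoins Macrod1 without overlap, was at 58.1 ± 19.1 RPKM in CD44+CD51- cells and 44.5 ± 9.57 RPKM in CD51+ cells.

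The microRNA in the Egfl7 intron is printed because the gene is its host, but its own level was not measured here.
mmu-miR-126a-3p, chr2:26591402-26591423, plus strand, seed (bases 2 to 8) in capitals: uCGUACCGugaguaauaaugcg

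Relatives of Chchd10 were higher in CD44+CD51- cells or not called. The list held 37 genes of the paired-cysteine (CHCH) fold, of the MICOS complex that shapes the inner mitochondrial membrane, and of their import and processing partners. Of 36 tested, 18 were higher and none lower, with 18 not called, against 29.7% higher and 24.1% lower over all genes. The median difference was 0.52 on the log2 scale, against 0.23 over all genes. At an unadjusted p under 0.05 the counts were also 18 higher and 0 lower. After quantile normalization 16 of the 36 were higher, against 4567 of all 11741 genes. After median centring 14 were, against 2564. Without 1 library the number higher ran from 13 to 18. No member of the list reached the difference of Chchd10, but Chchd10 was chosen for that difference and the list was not.

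Chchd2, the closest paralog of Chchd10, was at 234 ± 24.9 RPKM in CD44+CD51- cells and 135 ± 22.6 RPKM in CD51+ cells (log2 difference 0.80, adjusted p = 0.00996, limma). Chchd4, the receptor that imports and oxidises such proteins, rose to 25.3 ± 1.61 RPKM in CD44+CD51- cells, against 10.2 ± 1.35 RPKM in CD51+ cells (1.23, adjusted p = 0.000618, limma). The MICOS genes Chchd3 and Chchd6 rose by 0.81 and 1.06. Chchd1, Chchd5 and Chchd7 differed by 0.30, 0.22 and 0.29 and did not pass the test. Outside the Chchd symbols, Dnajc11 and Samm50, which act with MICOS, rose by 1.12 and 0.94, and the complex IV assembly gene Coa5 and Aifm1, the partner of CHCHD4, by 1.06 and 0.98.

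Relatives of Macrod1 were called at about the shares of all genes. Of 34 genes that add, read or remove ADP-ribose, 28 were tested, of which 7 were higher (25.0%), 7 lower (25.0%) and 14 not called, with a median difference of 0.08, against 29.7% higher and 24.1% lower over all genes. Macrod2, the closest paralog, was at 1.05 ± 0.134 RPKM in CD44+CD51- cells and 0.957 ± 0.292 RPKM in CD51+ cells (adjusted p = 0.696, limma), far below Macrod1 in both groups. Under quantile normalization alone it passed the test (adjusted p = 0.00298, over a range of 0.00298 to 0.769).

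Of enzymes in this list, Parp1, which marks broken DNA, was at 69.0 ± 6.00 RPKM in CD44+CD51- cells and 27.8 ± 1.05 RPKM in CD51+ cells (log2 difference 1.28, adjusted p = 0.000306, limma). The chromatin remodeller Chd1l, the blood group gene Art4 and Nudt9, which cleaves free ADP-ribose, rose by 1.02, 0.97 and 0.98. H2afy2, a histone variant with a macrodomain, was at 0.0732 ± 0.0517 RPKM in CD44+CD51- cells and 9.21 ± 2.55 RPKM in CD51+ cells. Parp3, Tiparp and Parp8 had log2 differences of -2.10, -1.32 and -1.42. H2afy2 and Parp3 passed the filter through CD51+ libraries alone, so these 2 of the 7 lower had to differ. The 7 lower became 4 without CD44+CD51- library 3 or CD51+ library 3 and 3 without CD51+ library 1 or 2, and the 7 higher became 4 without CD51+ library 2.

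Relatives of Prss50 were mostly low or lower. Of 45 serine protease genes in the table, listed as trypsin-like or for a Prss symbol, 14 passed the filter. Of these 11 were lower, 2 higher and 1 not called. Over all genes 29.7% were higher and 24.1% lower. For 3 of the 14 no CD44+CD51- library reached an RPKM of 1, so that they entered through CD51+ libraries and had to differ, and the counts are no share of the family. Of 22 other genes with a Prss symbol 8 were at 0 in all libraries and 8 more never exceeded 0.397 RPKM, among them Prss44 and Prss45. Of the 6 tested, Prss35 and Prss23, which encode secreted proteins, were lower. So were Prss34, a protease of basophils and mast cells, Prss57, a neutrophil protease, and Prss16, a protease of the thymus listed for its symbol.

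Prss35 was at 0.267 ± 0.398 RPKM in CD44+CD51- cells and 88.7 ± 19.7 RPKM in CD51+ cells (log2 difference -6.17, adjusted p = 7.21e-06, limma). The call of the gene Prss16 was lost under quantile normalization (adjusted p = 0.168), without CD44+CD51- library 1 (0.0538) or 3 (0.0655) and without CD51+ library 1 (0.055), in a range of 0.00744 to 0.168. Prss36 was not called (log2 difference 0.16, adjusted p = 0.481, limma). The 2 that rose were Hpn, a membrane protease, at 32.8 ± 2.91 and 9.64 ± 2.01 RPKM in CD44+CD51- and CD51+ cells, and Htra2, a mitochondrial protease, by 1.22. The granulocyte protease genes Prtn3 and Ctsg fell by 2.08 and 2.05, the basophil gene Mcpt8 by 4.02 and Htra1, a secreted protease gene, by 6.30. Without CD51+ library 1 or 3, 6 were lower.

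Relatives of Cited4 were lower or not called, apart from 1 gene. Of 19 CITED genes and partners, 10 were tested, with 1 higher, 4 lower and 5 not called. Over all genes 29.7% were higher and 24.1% lower. Of the 4 lower, 2 passed the filter through CD51+ libraries alone and had to differ, so the counts are no share of the list. Cited2, which also binds CBP and p300, was at 12.7, 29.7 and 16.8 RPKM in the CD44+CD51- libraries and at 68.6, 93.2 and 91.3 RPKM in the CD51+ libraries. The log2 difference was -2.11 (adjusted p = 0.00146, limma), with every CD44+CD51- library below every CD51+ library. Cited4 thus exceeded Cited2 in all CD44+CD51- libraries, and Cited2 exceeded Cited4 in all CD51+ libraries. Cited1 was at no more than 0.335 RPKM in any library.

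Of the HIF genes, Hif1a encodes HIF-1 alpha, with which CITED4 competes for its coactivators. Hif1a was at 7.15 ± 0.944 RPKM in CD44+CD51- cells and 15.2 ± 1.73 RPKM in CD51+ cells (log2 difference -0.99, adjusted p = 0.00232, limma). Epas1, which encodes HIF-2 alpha, was at 0.142 ± 0.222 and 12.3 ± 2.84 RPKM in CD44+CD51- and CD51+ cells, and Hif3a at 2.75 ± 0.316 and 0.886 ± 0.226 RPKM. Pparg, a regulator of fat cells that the list also holds, fell by 2.88. For Epas1 and Pparg, 2 of the 4 lower, no CD44+CD51- library reached an RPKM of 1, so they too were tested only for their level in CD51+ cells. Without CD51+ library 1, 2 or 3 the 4 lower became 2.

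Egfl7 had no near relative at a like level. Egfl6 and Egfl8, the other genes of the symbol, were at no more than 0.363 RPKM and were not tested. The list of relatives held 20 genes for secreted EGF-like and EMI-domain proteins and the Notch receptors and ligands to which EGFL7 can bind. Of these 7 were tested, with 1 higher, 4 lower and 2 not called, against 29.7% higher and 24.1% lower over all genes. Emilin2 rose by 0.76, while Emilin1, Notch3, Jag1 and Notch1 fell by 2.22, 2.54, 1.41 and 0.83. For Notch3, Jag1 and Notch1 no CD44+CD51- library reached an RPKM of 1, so these 3 of the 4 lower entered through CD51+ libraries and had to differ. The call of Notch1 was lost under quantile normalization (adjusted p = 0.906, in a range of 0.00383 to 0.906), and 1 gene was lower without any 1 CD51+ library.

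Of the endothelial markers tested, Eng and Plvap, which encodes a protein of vessel wall pores, stood at about the level of Egfl7 or above, and no other exceeded 5.97 RPKM in a library. Of 27 listed, 25 were in the table and 11 tested, with 1 higher, 2 lower and 8 not called. Over all genes 29.7% were higher and 24.1% lower. With the replicate block 3 markers were higher and 5 lower, against 4854 higher and 3265 lower of all 11741 genes. Their summed level was 65.8 to 95.4 RPKM in CD44+CD51- libraries and 50.05 to 76.5 RPKM in CD51+ libraries. Eng, the endoglin gene, which erythroid precursors also transcribe, rose to 38.4 ± 12.3 RPKM in CD44+CD51- cells, against 15.8 ± 2.86 RPKM in CD51+ cells. Plvap was at 30.0 ± 7.97 RPKM in CD44+CD51- cells and 18.1 ± 5.31 RPKM in CD51+ cells and was not called (adjusted p = 0.0674, limma). Plvap was named after its values were seen. Clec14a, which no CD44+CD51- library held at an RPKM of 1 and which so had to differ, fell by 1.57 and Rasip1 by 1.00. The call of Rasip1 was lost in 7 of 11 alternatives (adjusted p up to 0.514), and the count of lower markers ran from 0 without CD51+ library 1 or 2 to 4 without CD44+CD51- library 2.

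In CD44+CD51- libraries 1 and 3, 8 of the 25 endothelial markers were at 0, and none in library 2. Most of the 25 did not pass the filter on low values. Egfl7 was at 56.1, 18.7 and 17.9 RPKM in CD44+CD51- libraries 1, 2 and 3. Pecam1, which encodes CD31, was at 1.19, 3.34 and 1.94 RPKM in the CD44+CD51- libraries and at 1.24, 1.96 and 2.04 RPKM in the CD51+ libraries. Eng was at 52.6, 31.7 and 31.0 RPKM in the CD44+CD51- libraries and at 18.2, 16.4 and 12.6 RPKM in the CD51+ libraries. Egfl7 and Eng were highest in library 1 of both groups, and Pecam1 and Plvap in library 2 of the CD44+CD51- group. The part of endothelial cells in the level of Egfl7 was not tested.

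Erythroid and B lineage genes were called higher more often than lower. Of 35 erythroid genes tested 21 were higher (60.0%), 5 lower (14.3%) and 9 not called, with a median difference of 1.12, against 29.7% higher and 24.1% lower over all genes. The regulators Gfi1b and Gata1 and the transferrin receptor gene Tfr2 rose by 1.59, 1.57 and 1.84, while Hbb-bs, Hba-a2 and Alas2, of later red cells, fell by 2.76, 2.62 and 2.21. The 5 lower became 2 without CD44+CD51- library 3, 1 without CD51+ library 2 and 0 without CD51+ library 3, and the call of each of the 3 genes just named was lost in at least 1 of these (adjusted p up to 0.0606).

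Of 16 B lineage genes tested 13 were higher (81.2%, against the same 29.7%), none lower and 3 not called in the limma fit; at an unadjusted p under 0.05 the counts were the same, and with the replicate block 1 was lower. Vpreb1 and Dntt, of early B cells, rose by 3.19 and 3.22 and the transcription factor gene Lef1 by 1.44. For Lef1 no CD51+ library reached an RPKM of 1. This 1 of the 13 higher thus passed the filter through CD44+CD51- libraries alone and had to differ. Vpreb1 has close paralogs, so its reads are uncertain. Of 13 stem and early progenitor genes 5 were higher (38.5%) and 3 lower (23.1%), against 29.7% and 24.1% over all genes. Among the higher were Kit, Tal1 and Gata2. Angpt1, Ly6a and Runx1 were lower, the last not without CD51+ library 2 (adjusted p = 0.0563, limma). With the replicate block 5 were lower. The 5 higher became 3 without CD44+CD51- library 2 or 3 or CD51+ library 2. Of 17 megakaryocyte genes none was higher and only Thbs1 lower (adjusted p = 0.0195, limma), against 29.7% higher and 24.1% lower over all genes. None was higher at an unadjusted p under 0.05 in limma either. The call of Thbs1 was lost without CD44+CD51- library 1 or CD51+ library 2 or 3 (adjusted p up to 0.0749, limma). The replicate block gave 2 higher and 2 lower, and 5 were higher without CD51+ library 3. Library 3 stood apart for this list in both groups, with summed levels of 373, 344 and 1300.2 RPKM in the CD44+CD51- libraries and 230.03, 217 and 2779 RPKM in the CD51+ libraries.

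**Figure D3:**
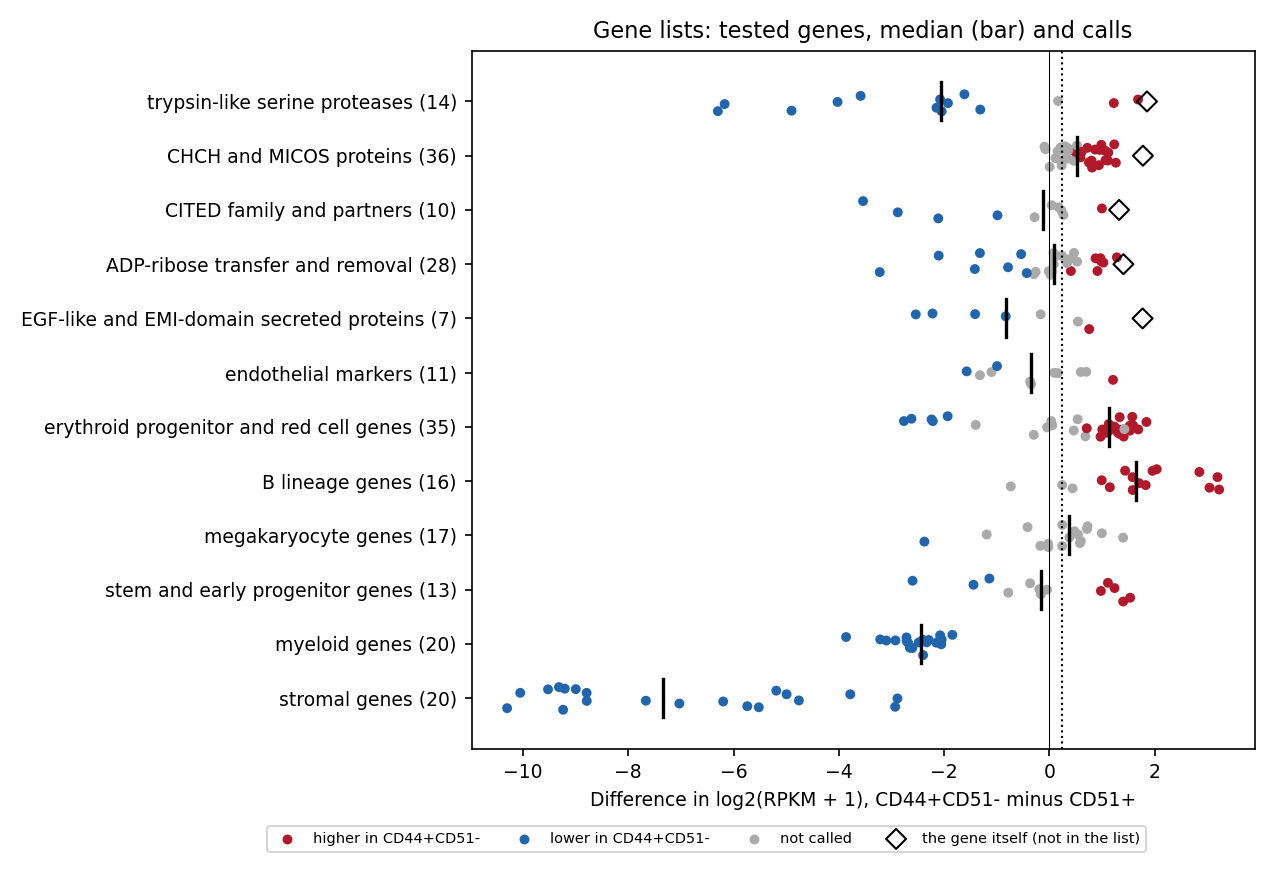
Difference in log2(RPKM + 1), CD44+CD51- minus CD51+, of every tested gene of each list, with the number tested in brackets. Red points were called higher and blue points lower in CD44+CD51- cells by limma, grey points were not called, bars are list medians, the dotted line is the median of all genes, and diamonds are Prss50, Chchd10, Cited4, Macrod1 and Egfl7 beside their relatives. The CHCH and MICOS genes lie near or right of 0, while most tested relatives of Prss50 and Egfl7 lie left of it and those of Cited4 on both sides.

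The genes with the most similar pattern were sought among the 11741 by the root mean square difference between profiles over the 6 libraries, each profile being log2(RPKM + 1) less its own mean. For Prss50 they were Nefh, Tfr2, Fam132a, Pwp2 and Dctd, at 0.15 to 0.20. Fam132a was at 989 ± 188 RPKM in CD44+CD51- cells and 325 ± 12.2 RPKM in CD51+ cells. Tfr2, whose product senses transferrin, was at 105 ± 12.8 and 28.6 ± 1.02 RPKM in CD44+CD51- and CD51+ cells.

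For Chchd10 they were Hpn, Sdsl, Snord100, Ces2g and Gfi1b, at 0.13 to 0.15. Gfi1b, a repressor needed by red cell and platelet precursors, was at 294 ± 21.6 RPKM in CD44+CD51- cells and 97.4 ± 12.2 RPKM in CD51+ cells. For Egfl7 they were Bag2, Cenpv, Spire1, Hnrnpa1 and Alad, at 0.14 to 0.24, and these shared its high library 1. Alad, an enzyme of haem synthesis, was at 782 ± 605 RPKM in CD44+CD51- cells and 273 ± 119 RPKM in CD51+ cells.

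Cited4 and Macrod1 had closer neighbours. For Cited4 they were Hspa9, a mitochondrial chaperone, Tomm40, the import pore of the outer mitochondrial membrane, Minpp1, Ppan and C1qbp, at 0.06 to 0.07. For Macrod1 they were Nle1, Gart, an enzyme of purine synthesis, Elac2, Pus1 and Hdac7, at 0.06 to 0.08. Within 0.15, a limit set after the values were seen, lay 104 genes for Cited4 and 83 for Macrod1, but 4 for Chchd10, 1 for Egfl7 and 0 for Prss50. Among the 5 themselves Cited4 and Macrod1 were nearest, at 0.18, and Chchd10 and Egfl7 farthest, at 0.72. These genes were selected for likeness to genes that differ between the groups, so their own difference is no finding.

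**Figure D4:**
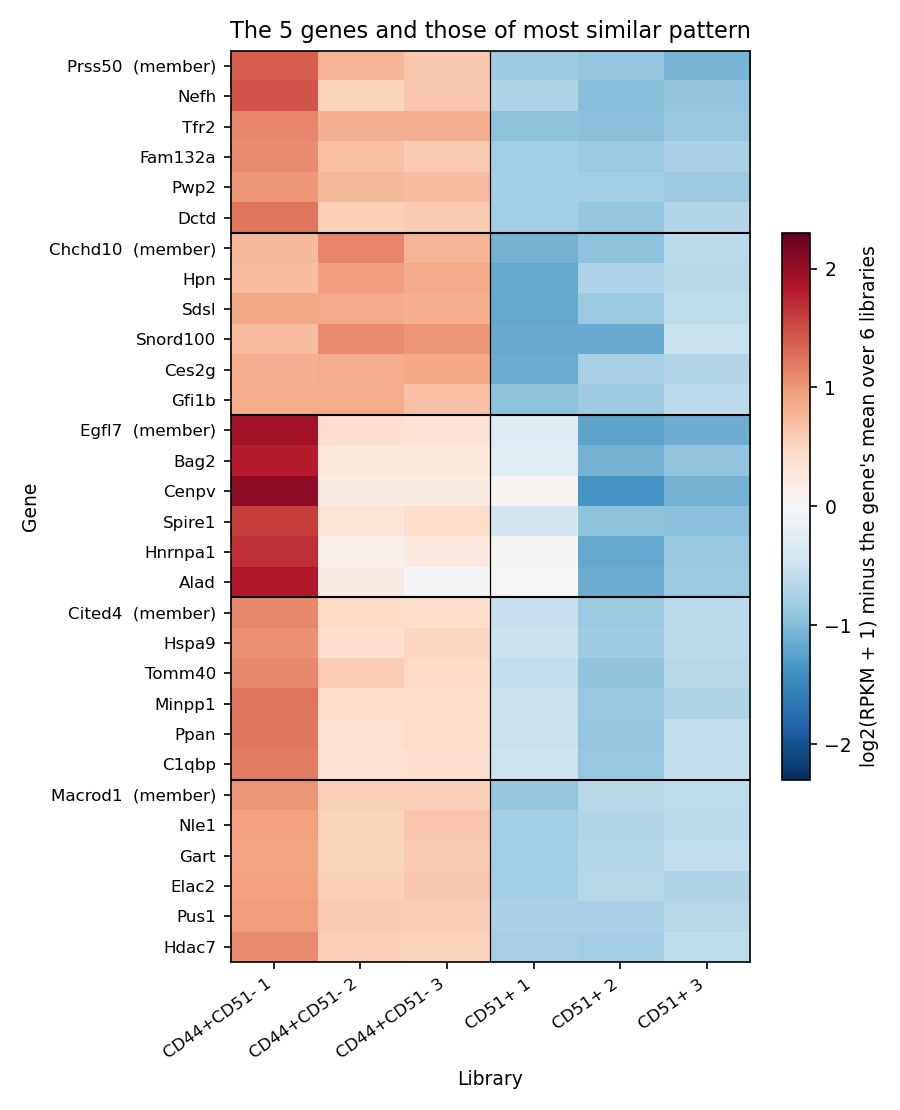
Profile of each of the 5 genes, marked as member, and of the 5 genes most like it, as log2(RPKM + 1) less the gene's mean over the 6 libraries (colour), by library. CD44+CD51- library 1 is the darkest red for Egfl7 and its neighbours, and CD44+CD51- library 2 for Chchd10.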

How the data were processed

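Transcripts were measured in 6 bulk libraries of sorted mouse marrow cells, 3 of CD44+CD51- and 3 of CD51+ cells. The deposited table holds RPKM values that the authors made against GRCm38 with edgeR 3.16.5 among the tools, per the submitters' processing notes. The aligner, counter and gene annotation are not given in the sources used here. RNA was extracted with RNeasy Plus Micro and libraries made with Nextera XT, per the labels' protocols. RPKM are not counts, so the groups were compared with limma 3.58.1 (R 4.3.3, trend option) on log2(RPKM + 1), CD44+CD51- minus CD51+. Genes with an RPKM of at least 1 in at least 3 libraries were tested, and p-values were adjusted over all 11741 by Benjamini and Hochberg, with a threshold of 0.05. A pseudocount of 1 understates the change of low genes. Rows that share a symbol were kept apart, and the row of highest mean carries the name.

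The 5 genes, the gene lists and the tests were chosen with earlier results of these data known. Besides the 5 genes, the text names the relatives of the same symbol, the 5 genes of most similar pattern and the sorting genes. Each related list gave up to 4 other genes in each direction, and each cell type list up to 3, by smallest adjusted p. Annotated genes that overlap or adjoin a member were chosen by position. Library sizes were estimated from the steps between RPKM values of up to 10 reads with GENCODE M21 lengths, with 90.1 to 92.4% of such values whole within 0.05 read. Libraries of equal number deviated together from their group means, with correlations over genes of 0.62, 0.29 and 0.52 for numbers 1, 2 and 3. CD44+CD51- library 3 against CD51+ library 2 gave 0.32, above the value for number 2. CD44+CD51- library 2 against CD51+ library 3 gave 0.20. Numbers 2 and 3 are thus not clearly paired, and the labels state no pairing. The ratios within numbers and the replicate block take equal numbers as pairs. Alternatives were a pseudocount of 0.1, no filter, quantile normalization, median centring, the replicate block and each library left out. With no statement of separate animals, p-values measure only the spread between these libraries. The limma step was tested on simulated data.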

Additional observations from a re-analysis of the deposited data

How the results depend on the processing

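The differences of the 5 genes kept their direction under every alternative, and without 1 library they ran from 1.25 to 2.06 for Egfl7 and from 1.10 to 2.01 for the other 4. Endothelial markers had 1 lower with a pseudocount of 0.1, 2 higher and 1 lower after quantile normalization, and 3 higher and 5 lower with the replicate block. The replicate block gave 1 lower B lineage gene, 2 higher and 2 lower megakaryocyte genes and 5 lower stem and early progenitor genes, and moved no other list count by over 1.5 times. Quantile normalization and median centring each gave 2 lower megakaryocyte genes, and no filter gave 6 lower stem and early progenitor genes. Without 1 library, the number called lower ran from 1225 to 2739 over the whole table, 6 to 11 for serine proteases, 2 to 4 for CITED genes and partners, 3 to 6 for ADP-ribose genes, 1 to 4 for EGF-like genes, 0 to 4 for endothelial markers, 0 to 6 for erythroid genes, 0 to 2 for megakaryocyte genes and 12 to 20 for stromal genes. The number called higher ran from 4 to 6 for ADP-ribose genes, 1 to 2 for endothelial markers, 0 to 5 for megakaryocyte genes and 3 to 5 for stem and early progenitor genes. Without a CD51+ library fewer genes passed the filter, 10437 to 10487, and for the other changes the cause was not tested. Of 95 tested genes chosen by the naming rule 84 were called, 75 of them under every alternative. The precision is limited by 3 libraries in each group.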
